A study of Mus musculus with 6 samples.

Results

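The collagen folding and modification machinery was followed through 10 genes in bone marrow RNA of wild-type and Cbx2-/- mice. The genes were chosen by symbol as the chaperones, prolyl and lysyl hydroxylases, propeptide processing and crosslinking genes of collagen synthesis, and each had 1 row among the 22838 genes of the deposited table. The wild-type group (n = 3 mice, group mean body weight 12.3 g) and the Cbx2-/- group (n = 3 mice, group mean body weight 4.0 g) were both 3 weeks old and of the mixed strain 129/C57BL/6. Cbx2 encodes a chromobox subunit of Polycomb repressive complex 1, and the series concerns its part in bone and fat cell differentiation in postnatal long bones. The labels give no description of the allele, no drug or diet and no sex, and every library came from whole marrow of tibia and femur, so all cell types of the marrow were measured together. Values are FPKM, read counts scaled by transcript length and library size, which allows levels of different genes to be compared.

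Collagen chains are made in the endoplasmic reticulum, where hydroxylases modify prolines and lysines before 3 chains wind into a triple helix. Chaperones and prolyl isomerases hold and fold the helix, proteases outside the cell remove its end propeptides, and lysyl oxidases crosslink the finished fibrils. In marrow preparations from long bone the main makers of fibrillar collagen are osteoblasts and stromal fibroblasts, whereas some enzymes of the pathway also serve other secreted proteins and are present in most cells.

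The libraries carried marrow transcripts in both groups, with summed neutrophil markers of 35398 to 79732 FPKM and summed erythroid markers of 7479 to 21990 FPKM. Cbx2 itself was at 2.90, 3.83 and 2.75 FPKM in wild-type and at 2.11, 1.87 and 1.88 FPKM in Cbx2-/- libraries (limma adjusted p = 0.0558). The Cbx2-/- libraries were not alike. Skeletal muscle markers summed to 337 and 403 FPKM in Cbx2-/- replicates 1 and 2, to 12 FPKM in Cbx2-/- replicate 3 and to 20.9 to 27.5 FPKM in the wild-type libraries. Mylpf made up 79.5% of the wild-type sum. Without it, a sum computed with the values known, Cbx2-/- replicates 1 and 2 were at 291 and 330 FPKM. Cbx2-/- replicate 3, at 4.08 FPKM, then lay within the wild-type range of 2.87 to 6.90 FPKM. The part of these muscle transcripts in the results was not tested. By limma 0 of 5 tested muscle markers were called in either direction, and 4 were higher at an unadjusted p under 0.05.

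In all, 7 of the 10 genes fell in Cbx2-/- marrow, 0 rose and 3 did not pass (limma on log2(FPKM + 1), Benjamini-Hochberg adjusted p under 0.05 over 12006 tested genes). At an unadjusted p under 0.05, 7 were lower and 0 higher, where 1811 and 2089 of the 12006 tested genes were. The genes that fell were Plod2, Serpinh1, Pcolce, P4ha2, Lox, P4ha1 and Fkbp10, by 2.07-fold to 7.17-fold in mean FPKM. Crtap, Ppib and Plod1 did not pass. The background share of all tested genes called lower was 8.31%, and that called higher was 8.8%. The median difference was -1.27 over the 10 genes and 0.02 over all tested genes (log2). Every Cbx2-/- library lay below every wild-type library in 7 of the 10 genes, where this held for 18.2% of all tested genes. All 10 genes passed the filter of 1 FPKM in 3 libraries. In whole marrow, fewer cells of a collagen-making type and less RNA in each such cell cannot be told apart. Over all tested genes, 51.4% of the calls were higher, and 37.7% were with haemoglobin genes left out of the scaling.

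**Figure D1:**
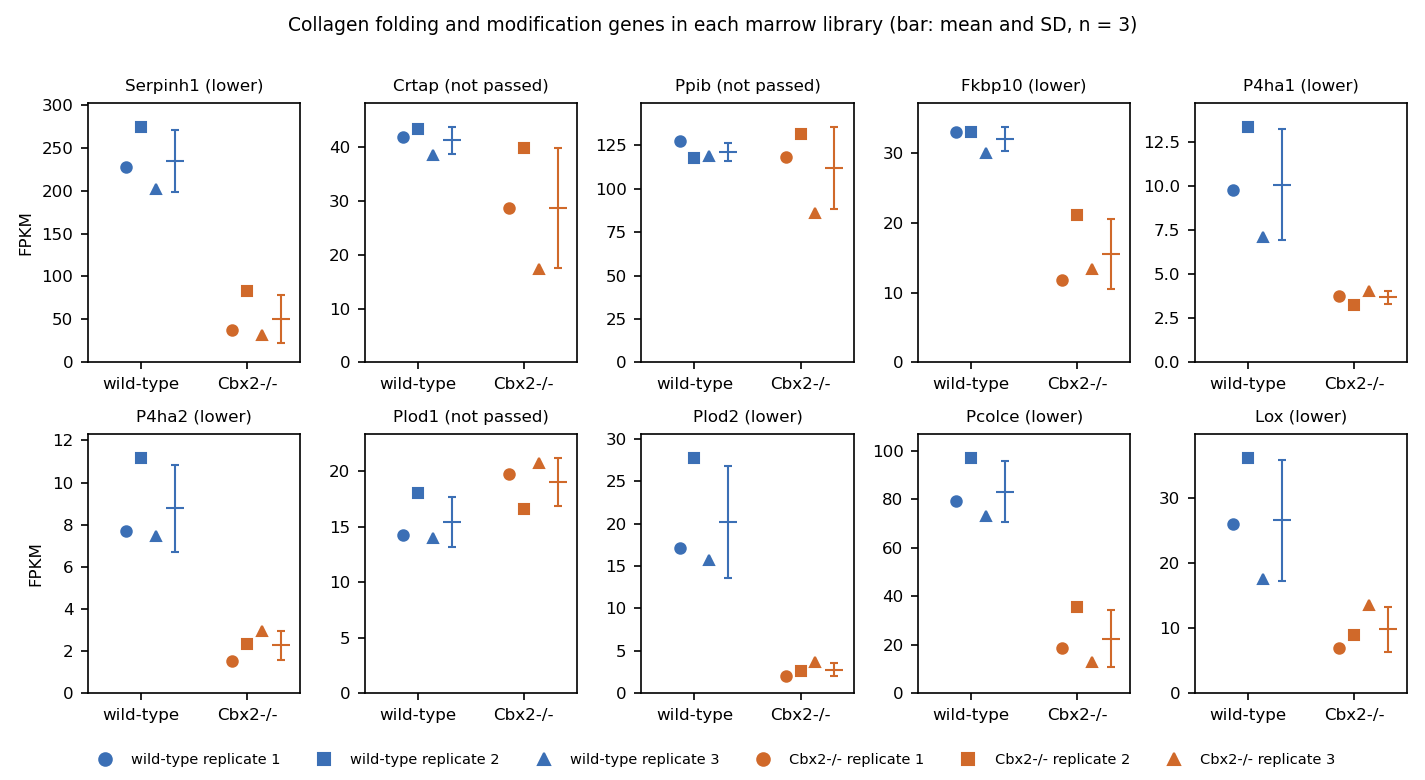
FPKM (vertical axis, from 0) of each of the 10 genes in the 3 wild-type libraries (blue) and the 3 Cbx2-/- libraries (orange), with symbols for the replicate and bars for mean and SD. The groups are separate for 7 genes and overlap for Crtap, Ppib and Plod1.

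The collagen-specific chaperone was the most abundant of the 10 transcripts in wild-type marrow. Serpinh1 (GRCm38 chromosome 7, 99345376 to 99353239, minus strand, 5 exons in its longest coding transcript) encodes HSP47, which binds the folded triple helix. It was at 227, 274 and 202 FPKM in the wild-type libraries and at 37.4, 82.7 and 32.4 FPKM in the Cbx2-/- libraries. The groups were far apart, with Cbx2-/- replicate 2 the highest of its group. Serpinh1 fell 4.62-fold, a log2 difference of -2.30 with an SE of 0.34 (limma adjusted p = 0.00478). Its share of the summed FPKM of the 10 genes was 38.6% to 40.8% in wild-type and 15% to 24% in Cbx2-/- libraries. By mean level it ranked 1 among the 10 in wild-type and 2 in Cbx2-/- marrow, behind Ppib.

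Fkbp10 (chromosome 11, 100415697 to 100424824, plus strand, 10 exons) encodes FKBP65, a prolyl isomerase of the endoplasmic reticulum that acts with HSP47 on procollagen. Its FPKM was 33, 33.1 and 30 in wild-type libraries and 11.8, 21.2 and 13.5 in Cbx2-/- libraries. The wild-type values were close together, and all Cbx2-/- values lay below them. Fkbp10 fell 2.07-fold, by 1.04 ± 0.21 (log2, SE, limma adjusted p = 0.0152). The call was lost without wild-type replicate 1, 2 or 3 or without Cbx2-/- replicate 1 (limma adjusted p = 0.0663, 0.0659, 0.0559 and 0.0531), with differences of -1.02, -1.02, -1.09 and -0.88. Its exons share 193 bases with Nt5c3b on the opposite strand, 6.6% of its exonic bases.

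The prolyl 3-hydroxylase complex gave a mixed result. This complex hydroxylates a specific proline of collagen I chains and consists of the enzyme P3H1, its partner CRTAP and the isomerase cyclophilin B, encoded by Ppib. Crtap (chromosome 9, 114375134 to 114390675, minus strand, 7 exons) was at 41.9, 43.4 and 38.6 FPKM in wild-type and at 28.8, 39.9 and 17.5 FPKM in Cbx2-/- libraries. Cbx2-/- replicate 2 lay within the wild-type range and the others lay below it. The difference of -0.58 (95% interval -1.21 to 0.05, log2) did not pass (limma adjusted p = 0.184).

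Ppib (chromosome 9, 66060222 to 66066623, plus strand, 5 exons) was at 127, 118 and 119 FPKM in wild-type and at 118, 132 and 85.8 FPKM in Cbx2-/- libraries. Its groups overlapped, with Cbx2-/- replicate 3 the lowest of all libraries. The difference of -0.14 (95% interval -0.60 to 0.32, log2) did not pass (limma adjusted p = 0.696). Of its exonic bases 25% (825 bases) are shared with Snx22 on the opposite strand, and whether reads were assigned by strand is not stated in the labels.

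Within the Cbx2-/- group, Crtap, Ppib, Serpinh1 and Pcolce had the same order of libraries as the summed skeletal muscle markers, highest in replicate 2 and lowest in replicate 3. This order was not particular to muscle, since summed neutrophil, marrow stromal and megakaryocyte markers had it too. Among the muscle markers, Ckm, Tnnt3 and Myh4 were highest in replicate 1. The part of muscle in the Crtap and Ppib values was not tested. With both muscle-bearing libraries left out, the difference was -1.20 for Crtap and -0.49 for Ppib (log2). That fit assumes that the single remaining Cbx2-/- library varies as the wild-type group does. With the muscle markers as a covariate the differences were -1.14 and -0.46 (limma adjusted p = 0.00217 and 0.0311). The markers were high in Cbx2-/- replicates 1 and 2 only, so the covariate fit leaned on replicate 3 as well. Over all tested genes it called 2724 lower, against 998 in the main fit. Without Cbx2-/- replicate 2 alone, Crtap was called lower (-0.85, limma adjusted p = 0.0447), while without Cbx2-/- replicate 3 the Ppib difference was 0.042.

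P3h1, the enzyme of the same complex and not among the 10 genes, fell from 14.8 ± 0.601 to 6.76 ± 1.06 FPKM (SD, n = 3 each, limma adjusted p = 0.00377). The FPKM ratio of P3h1 to Crtap was 0.369, 0.334 and 0.373 in wild-type and 0.25, 0.189 and 0.318 in Cbx2-/- libraries. The ratio of P3h1 to Ppib was 0.122, 0.123 and 0.121 in wild-type and 0.0609, 0.0572 and 0.0646 in Cbx2-/- libraries. Both ratios were lower in all Cbx2-/- libraries, and the P3h1 to Ppib ratio varied little within either genotype. The two-sided exact permutation p was 0.1 for each, the smallest that 3 against 3 libraries allow, and the Benjamini-Hochberg value over the 9 gene ratios computed was 0.1.

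The catalytic subunit genes P4ha1 and P4ha2 of prolyl 4-hydroxylase fell, and the third, P4ha3, was under the filter at 0.365 and 0.147 FPKM (means of wild-type and Cbx2-/- libraries). This enzyme makes the 4-hydroxyproline that keeps the collagen helix stable at body temperature, and its activity depends on oxygen, iron and vitamin C. P4ha1 (chromosome 10, 59323296 to 59373304, plus strand, 15 exons) was at 9.78, 13.4 and 7.12 FPKM in wild-type and at 3.79, 3.27 and 4.03 FPKM in Cbx2-/- libraries. The wild-type libraries spread widely and the Cbx2-/- libraries little. P4ha1 fell 2.73-fold, by 1.20 ± 0.21 (log2, SE, limma adjusted p = 0.00856).

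P4ha2 (chromosome 11, 54100095 to 54131665, plus strand, 16 exons) was at 7.7, 11.2 and 7.47 FPKM in wild-type and at 1.55, 2.32 and 2.96 FPKM in Cbx2-/- libraries. It fell 3.86-fold, by 1.58 ± 0.21 (log2, SE, limma adjusted p = 0.00327). The P4ha2 to P4ha1 ratio was 0.787, 0.835 and 1.05 in wild-type and 0.409, 0.709 and 0.735 in Cbx2-/- libraries, so P4ha2 was the lower of the pair in every library but wild-type replicate 3. The ratio was lower in all Cbx2-/- libraries (exact permutation p = 0.1, two-sided, the smallest possible). P4hb, the disulfide isomerase that forms the other subunit of the tetramer and serves protein folding generally, did not pass, at 194 ± 18.7 and 253 ± 62.1 FPKM (SD, n = 3 each, limma adjusted p = 0.303). The P4ha1 to P4hb ratio was 0.0414 to 0.065 in wild-type and 0.0117 to 0.0197 in Cbx2-/- libraries, and that of P4ha2 to P4hb was 0.0379 to 0.0543 and 0.00479 to 0.0144.

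The bases before the RefSeq gene starts are shown for 3 genes that fell and for Ppib, which did not pass, because P4ha1, P4ha2 and other genes of this pathway are known to be induced by hypoxia-inducible factor. RefSeq promoter windows of build GRCm38.p6 were matched for 7 of the 10 genes (all but Fkbp10, Plod2 and Lox), and the 250 bases before the start were read on the gene strand, 5′ to 3′. The RefSeq starts of P4ha2 and Pcolce lie 829 and 2380 bases inside the GENCODE genes, so these windows are not before the outermost annotated start. The P4ha2 window holds no annotated exonic base, while 83 bases of the Pcolce window, which is not printed, are exonic. The RefSeq start of Ppib lies 53 bases before the GENCODE gene and matched no GENCODE transcript start. Capitals mark the core letters of the hypoxia response element, ACGTG or GCGTG, on either strand. The windows are chr7:99353240-99353489 (minus) for Serpinh1, chr10:59323046-59323295 (plus) for P4ha1, chr11:54100674-54100923 (plus) for P4ha2 and chr9:66059919-66060168 (plus) for Ppib.
Serpinh1: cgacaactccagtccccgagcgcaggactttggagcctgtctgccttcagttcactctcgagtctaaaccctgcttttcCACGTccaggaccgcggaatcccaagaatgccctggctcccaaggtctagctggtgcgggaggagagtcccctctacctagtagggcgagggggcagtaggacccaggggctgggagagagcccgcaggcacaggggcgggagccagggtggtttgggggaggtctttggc
P4ha1: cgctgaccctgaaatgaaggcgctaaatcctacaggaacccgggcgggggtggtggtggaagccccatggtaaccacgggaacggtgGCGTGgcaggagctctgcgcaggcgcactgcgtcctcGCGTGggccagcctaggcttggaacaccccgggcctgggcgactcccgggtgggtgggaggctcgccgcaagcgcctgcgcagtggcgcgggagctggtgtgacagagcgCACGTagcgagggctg
P4ha2: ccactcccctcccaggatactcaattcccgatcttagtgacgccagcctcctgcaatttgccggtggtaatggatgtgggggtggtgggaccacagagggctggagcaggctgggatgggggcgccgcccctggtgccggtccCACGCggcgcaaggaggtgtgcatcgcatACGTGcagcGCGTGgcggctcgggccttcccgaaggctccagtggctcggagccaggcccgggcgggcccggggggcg
Ppib: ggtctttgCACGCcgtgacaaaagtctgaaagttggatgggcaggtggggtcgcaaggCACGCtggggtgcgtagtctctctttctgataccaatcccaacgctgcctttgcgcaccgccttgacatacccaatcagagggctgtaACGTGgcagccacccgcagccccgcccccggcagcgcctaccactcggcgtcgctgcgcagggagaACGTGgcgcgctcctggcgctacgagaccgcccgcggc
The core letters occurred in 7 of these 7 windows, once before Serpinh1, Plod1 and Pcolce, 3 times before Crtap, P4ha1 and P4ha2 and 4 times before Ppib. They occurred in 38.6% of all 32851 RefSeq windows of the same length. The genes that fell and those that did not pass both held them, and the 7 windows were richer in G and C (53.6% to 70%) than the median of all windows (52.4%). The GC box GGGCGG, searched on both strands, occurred in 6 of the 7 windows and in 32.7% of all. CCAAT, on either strand, occurred 2 times in the Ppib window, in none of the other 6 and in 33.8% of all.

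The lysyl hydroxylase genes parted. Lysyl hydroxylases make the hydroxylysine used in crosslinks, with LH1 (Plod1) acting mainly on the helix and LH2 (Plod2) on the telopeptides, where hydroxylation gives the crosslink type typical of bone. Plod2 (chromosome 9, 92542223 to 92608428, plus strand, 20 exons) was at 17.1, 27.7 and 15.7 FPKM in wild-type and at 2.1, 2.67 and 3.67 FPKM in Cbx2-/- libraries. It fell 7.17-fold, by 2.45 ± 0.24 (log2, SE, limma adjusted p = 0.00111), the largest difference of the 10 genes in this fit. It ranked 7 of the 10 by mean level in wild-type and 9 in Cbx2-/- marrow.

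Plod1 (chromosome 4, 147909753 to 147936767, minus strand, 19 exons) was at 14.3, 18.1 and 14 FPKM in wild-type and at 19.8, 16.6 and 20.7 FPKM in Cbx2-/- libraries. The groups overlapped, through the high wild-type replicate 2 and the low Cbx2-/- replicate 2. The difference of 0.29 (95% interval -0.08 to 0.65, log2) did not pass (limma adjusted p = 0.253), and it was above 0 in all 18 alternative fits without passing in any. Plod3, the remaining family member, chosen for naming with its values known, was at 21.8 ± 2.2 and 28.8 ± 6.19 FPKM (SD, n = 3 each, limma adjusted p = 0.195). Plod2 transcripts were 1.20, 1.53 and 1.12 times those of Plod1 in wild-type and 0.106, 0.161 and 0.177 times in Cbx2-/- libraries. This order reversed in every Cbx2-/- library, from Plod2 above Plod1 to Plod1 above Plod2. The exact permutation p for the ratio was 0.1 (two-sided), the smallest possible. The Plod2 to Plod3 ratio was 0.796, 1.15 and 0.798 in wild-type and 0.0585, 0.102 and 0.15 in Cbx2-/- libraries.

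Of the extracellular steps, Pcolce and Lox fell. Among the other genes of these steps, 1 of 3 tested propeptide processing genes (Bmp1) and 1 of 4 tested crosslinking genes (Loxl4) fell, and 0 rose by limma. Pcolce (chromosome 5, 137605103 to 137613784, minus strand, 9 exons) encodes a secreted glycoprotein that enhances removal of the C-terminal propeptide of procollagen by BMP1. It was at 79.4, 96.9 and 73 FPKM in wild-type and at 18.8, 35.6 and 13 FPKM in Cbx2-/- libraries. As for Serpinh1, Cbx2-/- replicate 2 was the highest of its group and replicate 3 the lowest. Pcolce fell 3.70-fold, by 1.95 ± 0.33 (log2, SE, limma adjusted p = 0.00777). The protease gene Bmp1 fell 2.45-fold, from 30.4 ± 2.49 to 12.4 ± 2.52 FPKM (SD, n = 3 each, limma adjusted p = 0.00387). The Pcolce to Bmp1 ratio was 2.54, 3 and 2.65 in wild-type and 1.96, 2.45 and 0.998 in Cbx2-/- libraries. The gap between the groups was narrow (exact permutation p = 0.1, two-sided, the smallest possible).

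Lox (chromosome 18, 52516067 to 52529867, minus strand, 7 exons) encodes lysyl oxidase, the copper enzyme that starts crosslinking of collagen and elastin. It was at 26, 36.2 and 17.7 FPKM in wild-type and at 6.99, 8.92 and 13.6 FPKM in Cbx2-/- libraries. Cbx2-/- replicate 3 came near the lowest wild-type library. Lox fell 2.70-fold, by 1.34 ± 0.30 (log2, SE, limma adjusted p = 0.0207). The call was lost without wild-type replicate 1 or 2 or Cbx2-/- replicate 1 (limma adjusted p = 0.078, 0.0757 and 0.071), with differences of -1.33, -1.10 and -1.14, and without both muscle-bearing libraries (-0.86, limma adjusted p = 0.0694). Megakaryocytes also make Lox. Summed megakaryocyte markers were 1054 to 2052 FPKM in wild-type and 705 to 1259 FPKM in Cbx2-/- libraries, 0 of 7 were called by limma in either direction (2 were lower at an unadjusted p under 0.05), none was at 0, and their part in the Lox values was not tested. The paralog Loxl1, chosen for naming with its values known, was at 8.81 ± 1.6 and 13.5 ± 6.96 FPKM (SD, n = 3 each, limma adjusted p = 0.329). The Lox to Loxl1 ratio was 2.80, 3.58 and 2.52 in wild-type and 0.781, 0.89 and 0.633 in Cbx2-/- libraries. Lox was thus the higher of the pair in every wild-type library and the lower in every Cbx2-/- library. The exact permutation p was 0.1 (two-sided), the smallest possible.

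Within the genotypes the 10 genes did not vary as 1 block. In wild-type marrow 9 of the 10 were highest in replicate 2 and lowest in replicate 3, the exception being Ppib. In Cbx2-/- marrow Serpinh1, Crtap, Ppib, Fkbp10 and Pcolce were highest in replicate 2, and P4ha1, P4ha2, Plod1, Plod2 and Lox in replicate 3. The 5 tested genes whose log2 values followed those of Serpinh1 most closely over the 6 libraries were Copz2, Kctd14, Tspan8, Pla2g16 and Myh10 (Pearson r 0.997 to 0.999). All 5 were lower in Cbx2-/- marrow, by 1.84-fold to 3.43-fold, and the call of Myh10 did not hold without 1 library in 4 of 6 cases (limma adjusted p up to 0.0729). These correlations rest mainly on the difference between the genotypes and are given as a description.

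Measured against the collagen I transcripts in the same library, the machinery did not fall as far. Col1a1 and Col1a2, the chains of collagen I, summed to 8838, 13389 and 7787 FPKM in wild-type and to 879, 1210 and 1586 FPKM in Cbx2-/- libraries, 8.17-fold lower. Col1a1 fell by 3.24 ± 0.30 (log2, SE, limma adjusted p = 0.000898) and Col1a2 fell by 2.76 ± 0.35 (log2, SE, limma adjusted p = 0.00272). Per 1000 FPKM of these 2 chains, 8 of the 10 genes were higher in every Cbx2-/- library than in any wild-type library. A gene whose own level stayed the same would rise on this measure by the fall of collagen I. The median difference in level over all tested genes was 0.02 (log2), so a rise on this measure is not particular to the machinery. The share of all tested genes that were higher in every Cbx2-/- library on this measure was not computed.

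Plod2 kept closest to collagen I. Per 1000 FPKM of Col1a1 plus Col1a2 it was at 1.94, 2.07 and 2.02 FPKM in wild-type and at 2.39, 2.21 and 2.31 FPKM in Cbx2-/- libraries. These 6 values lie close together although Plod2 itself ranged from 2.1 to 27.7 FPKM. P4ha2 was at 0.871, 0.834 and 0.959 in wild-type and at 1.76, 1.92 and 1.87 in Cbx2-/- libraries on this measure, 2.08-fold higher with little spread in either group. Lox was at 2.94, 2.70 and 2.27 in wild-type and at 7.95, 7.37 and 8.59 in Cbx2-/- libraries, 3.03-fold higher, and P4ha1 was 3.08-fold higher.

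Serpinh1 per 1000 FPKM of collagen I was at 25.7, 20.5 and 26 in wild-type and at 42.5, 68.3 and 20.4 in Cbx2-/- libraries. The groups overlapped, since Cbx2-/- replicate 3 was the lowest of all 6 libraries and the others of its group were the highest. Pcolce was at 8.98, 7.24 and 9.38 in wild-type and at 21.4, 29.4 and 8.21 in Cbx2-/- libraries. Here too the groups overlapped, with Cbx2-/- replicate 3 within the wild-type range and the others of its group above it. Fkbp10 was 3.83-fold, Crtap 5.38-fold, Ppib 7.43-fold and Plod1 10.1-fold higher on this measure. With Col1a1 alone below the line, all 10 genes were higher in every Cbx2-/- library, again with no share over all tested genes computed. On that measure Serpinh1 was at 33.3 to 43.4 in wild-type and 43.8 to 123 in Cbx2-/- libraries, a gap of little width, and Pcolce at 11.8 to 15.3 and 17.6 to 53.0. The log2 differences of Plod2, P4ha2 and Lox were then 0.41, 1.27 and 1.81 in place of 0.20, 1.06 and 1.60. These ratios are descriptions with no test.

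**Figure D2:**
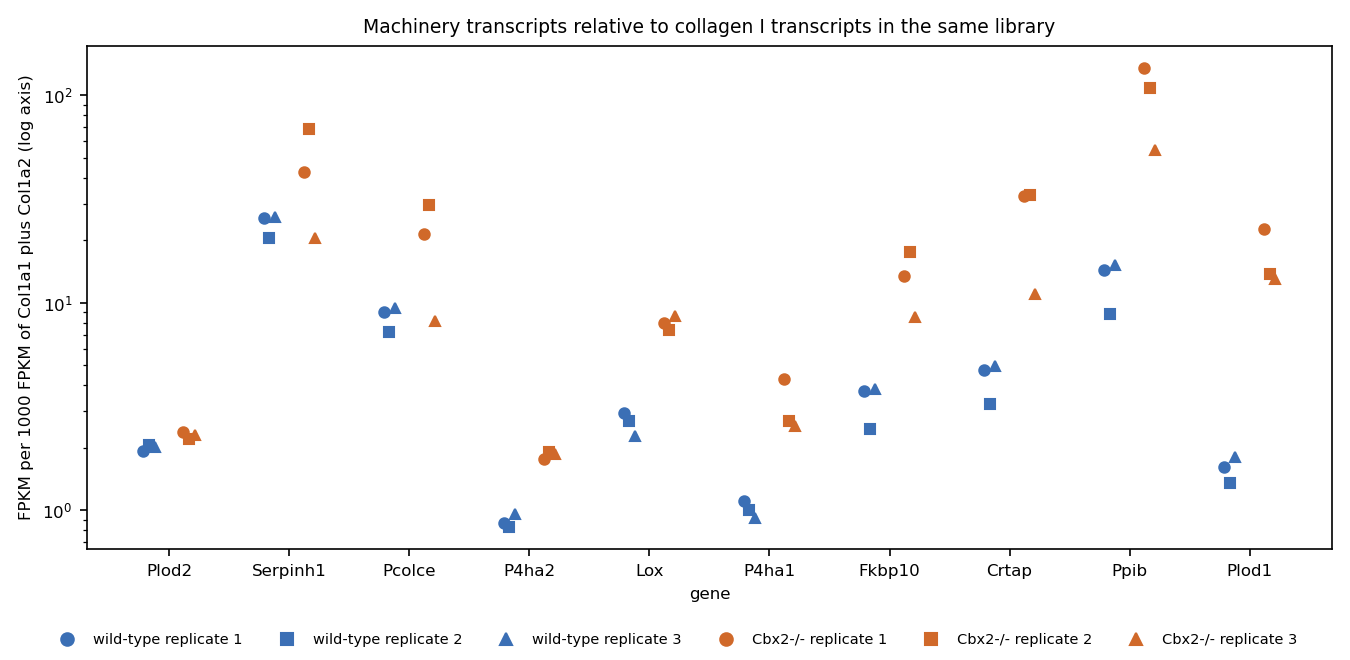
FPKM of each gene per 1000 FPKM of Col1a1 plus Col1a2 in the same library (vertical log axis), genes ordered by the difference between genotypes, symbols as for the levels. Plod2 lies between 1.94 and 2.39 in all 6 libraries, Serpinh1 and Pcolce overlap between the groups, and Plod1 is 10.1-fold higher in Cbx2-/- libraries.

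Of the other collagen synthesis genes, 31 rows were in the table and 24 were tested, of which 8 fell, 1 rose and 15 did not pass, with a median difference of -0.43 (log2). The share that fell was 33.3%, where 8.31% of all tested genes did. The 7 rows under the filter were P4ha3, Colgalt2, Mia2, Tll1, Tll2, Pcolce2 and Adamts3. Sparc, which encodes the collagen-binding matrix protein osteonectin, fell most, from 1656 ± 276 to 384 ± 117 FPKM (SD, n = 3 each, limma adjusted p = 0.00314). Creb3l1, a membrane-bound transcription factor gene that acts on collagen I genes in osteoblasts, fell 2.87-fold (limma adjusted p = 0.00213). P3h4, a partner of the lysyl hydroxylase LH1 in the endoplasmic reticulum, fell 2.31-fold, and Klhl12, a ubiquitin ligase adaptor for large transport carriers, fell 1.85-fold (limma adjusted p = 0.0055 and 0.00597).

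Fkbp14, an isomerase gene, fell 2.80-fold and Loxl4, a lysyl oxidase paralog, fell 2.98-fold (limma adjusted p = 0.0281 and 0.02). Both calls were lost without wild-type replicate 1 or 2 or Cbx2-/- replicate 1 (limma adjusted p of 0.0827 to 0.102 for Fkbp14 and 0.0689 to 0.0819 for Loxl4). Tmem38b, an ion channel gene of the endoplasmic reticulum, rose from 5.44 ± 0.338 to 8.56 ± 0.373 FPKM (SD, n = 3 each, limma adjusted p = 0.0162), a call lost without any 1 of the 3 wild-type libraries (limma adjusted p = 0.0577, 0.0784 and 0.0732). The most abundant genes that did not pass, besides P4hb, were Kdelr2, the retrieval receptor of HSP47, at 59.2 ± 11.5 and 42.7 ± 12.1 FPKM, the collagen galactosyltransferase gene Colgalt1 at 41.9 ± 1.61 and 36.1 ± 1.8 FPKM, and the export gene Ctage5 at 24.9 ± 0.803 and 28.1 ± 2.12 FPKM.

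**Figure D3:**
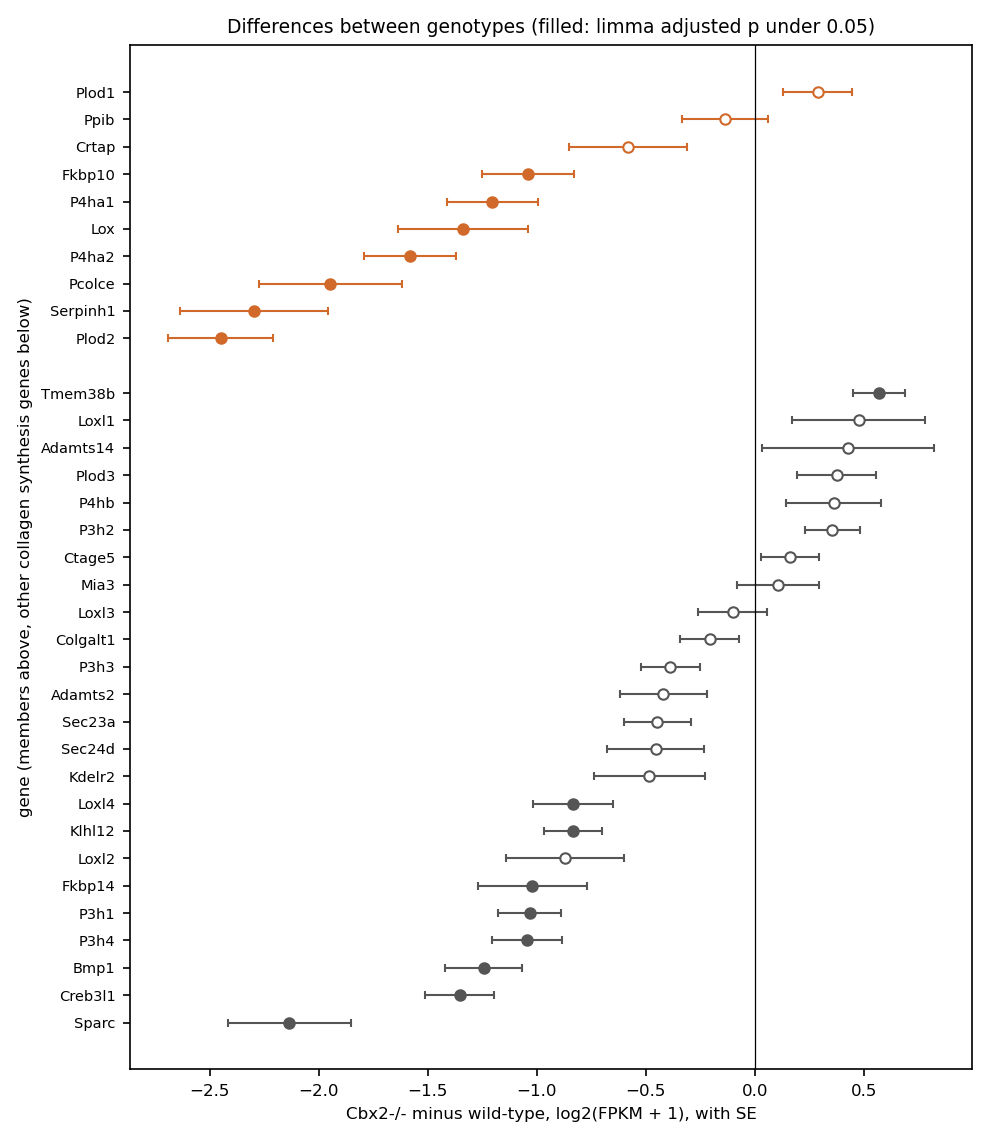
Difference between genotypes on the log2(FPKM + 1) scale with its SE (horizontal axis) for the 10 genes (orange, above) and 24 tested other genes of collagen synthesis (grey, below), filled where the limma adjusted p was under 0.05. In all, 7 of the 10 and 8 of the 24 are filled to the left of 0, and Tmem38b alone is filled to the right.

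The chains that this machinery modifies fell as a group. Of 11 fibrillar collagen chain genes, 10 fell and 1, Col27a1, did not pass, where 8.31% of all tested genes fell. Their median difference was -2.62 (log2), beyond the median of the 10 machinery genes. Col11a2 fell 9.68-fold, Col11a1 12.1-fold and Col1a1 9.60-fold. The calls of Col5a1 and Col5a3 were lost in some fits that left out 1 library (limma adjusted p up to 0.0575 and 0.0636).

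General folding genes of the endoplasmic reticulum did not show this pattern. Of 16 such genes, 0 fell and 1 rose by limma (0 lower and 1 higher at an unadjusted p under 0.05), with a median difference of -0.06. Over all tested genes the shares called lower and higher were 8.31% and 8.8%. The oxidase gene Ero1l rose from 12 ± 1.79 to 19.6 ± 3.55 FPKM (SD, n = 3 each, limma adjusted p = 0.0376), a call lost without any 1 of the wild-type libraries or Cbx2-/- replicate 1 (limma adjusted p of 0.0813 to 0.139). Hsp90b1 and Dnajb11 did not pass (limma adjusted p = 0.432 and 0.523).

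Of 14 other genes known as targets of hypoxia-inducible factor, 4 rose and 0 fell by limma, with a median difference of 0.54 (log2). Over all tested genes the shares called higher and lower were 8.8% and 8.31%. P4ha1, P4ha2, Plod2 and Lox, which also are known to respond to hypoxia, fell. The part of hypoxia in these values was not tested. The prolyl hydroxylase gene Egln3 rose 2.51-fold (limma adjusted p = 0.00439). Bnip3 rose 2.68-fold (limma adjusted p = 0.0139), a call lost without wild-type replicate 2 or 3 (limma adjusted p = 0.0639 and 0.0636). The calls of Pdk1 and Hk2 were lost without wild-type replicate 1, 2 or 3 or Cbx2-/- replicate 1 (limma adjusted p of 0.0527 to 0.106). At an unadjusted p under 0.05, 8 of the 14 were higher and 0 lower, where 2089 and 1811 of the 12006 tested genes were.

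Some markers of the collagen-making cell types fell with the machinery and others did not pass. For the counts below, 8.31% of all tested genes were called lower and 8.8% higher. Summed osteoblast markers were 1281 to 1813 FPKM in wild-type and 143 to 295 FPKM in Cbx2-/- libraries, with 4 of 8 called lower (Bglap, Ifitm5, Alpl and Sp7) and none at 0. Ibsp, Dmp1, Phex and Mepe did not pass. Mepe was at 27.9, 20.9 and 13.6 FPKM in wild-type and at 12.7, 14.5 and 57.6 FPKM in Cbx2-/- libraries. Its means were 20.8 (wild-type) and 28.3 FPKM (Cbx2-/-), the second raised by replicate 3 alone. Bglap made up 82.5% of the wild-type sum. Without it, a sum computed with the values known, the libraries were at 279, 290 and 229 FPKM in wild-type and at 79.6, 86.6 and 212 FPKM in the Cbx2-/- group, whose replicate 3 then came close to the wild-type range. Summed fibroblast markers were 237 to 385 FPKM and 57.4 to 114 FPKM, with 3 of 6 called lower (Dcn, Lum and Fbln1) and none at 0. Pdgfra, Fap and Thy1 did not pass, and mean Thy1 was 4.88 and 5.49 FPKM. Their part in the fall of the machinery genes was not tested. The 6 chondrocyte markers were low, at 1.78 to 3.18 FPKM summed in wild-type and 0.824 to 2.49 FPKM in Cbx2-/- libraries. Matn3, Hapln1 and Lect1 were at 0 in some libraries. Without Comp the sums were 0.633 to 1.18 FPKM in wild-type and 0.259 to 0.4 FPKM in Cbx2-/- libraries. The collagen II gene Col2a1, not in this list and named with its values known, was higher. It was at 24.2, 25.2 and 23.1 FPKM in wild-type and at 3.77, 2.57 and 0.784 FPKM in Cbx2-/- libraries (limma adjusted p = 0.00147). Adipocyte markers (6 of 7 called higher, 69.9 to 105 and 345 to 665 FPKM summed) and endothelial markers (4 of 6, 53.6 to 55.4 and 92.6 to 133 FPKM) moved the other way, the call of Emcn being lost in 4 of 6 cases with 1 library left out (limma adjusted p up to 0.129). Summed marrow stromal markers overlapped between the groups (308 to 398 and 369 to 913 FPKM), with Cxcl12 at 93% of the wild-type sum and not passing. Lepr, Kitl and Pdgfrb were called higher, but these calls were lost in 3, 2 and 4 of 6 cases with 1 library left out (limma adjusted p up to 0.111, 0.0681 and 0.167). Summed plasma cell markers, from cells rich in endoplasmic reticulum, were 70.6 to 96.3 FPKM in wild-type and 13.9 to 27.4 FPKM in Cbx2-/- libraries, with 1 of 3 tested called lower and Tnfrsf17 at 0 in some libraries. That 1 was Mzb1, at 70.2 ± 13.3 and 8.32 ± 4.9 FPKM (SD, n = 3 each), while Sdc1 (9.44 and 8.80 FPKM) and Igj (1.36 and 1.85 FPKM) did not pass. Without Mzb1 the sums overlapped, at 10.9 to 11.7 and 8.93 to 13.5 FPKM. All 4 B cell precursor markers were called lower.

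**Figure D4:**
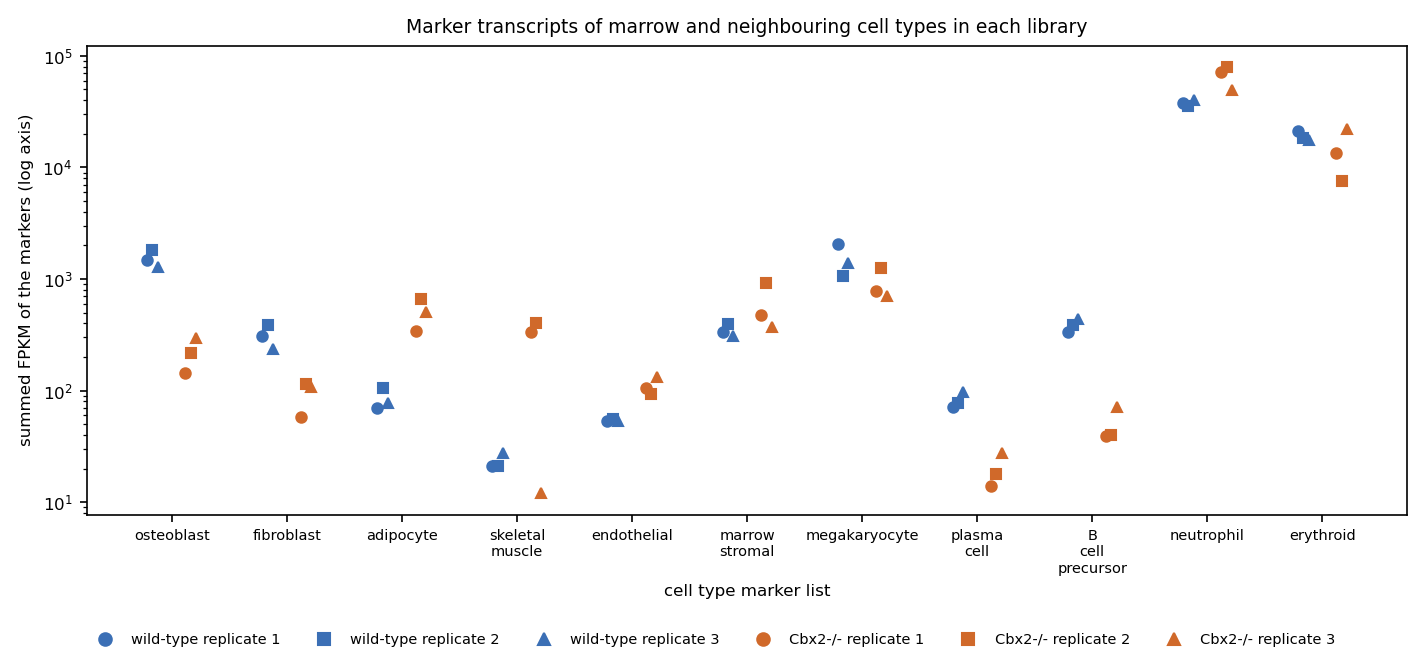
Summed FPKM of each cell type's markers (vertical log axis) in the 3 wild-type libraries (blue) and the 3 Cbx2-/- libraries (orange). Osteoblast markers are at 1281 to 1813 FPKM in wild-type and 143 to 295 FPKM in Cbx2-/- libraries, and skeletal muscle markers are high in Cbx2-/- replicates 1 and 2 only.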

How the data were processed

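Bone marrow RNA of 6 mice was read by RNA sequencing, 3 libraries per genotype. A stranded mRNA kit and 50-base single-end sequencing were used, per the labels' protocols. Per the submitters' processing notes the tools were FastQC 0.11.5, TopHat2 2.1.0 and Cufflinks 2.2.1 with build mm10. Their settings and the gene annotation are not stated there. The authors deposited FPKM values per gene and library. The 18 other per-library columns (12 confidence limits and 6 status columns) were not used. Total reads are unknown. The commonest ratio of values under 0.15 FPKM gave relative depths of 0.91 to 1.2 with wild-type replicate 1 at 1, an approximation because Cufflinks assigns fractions of reads. Summed FPKM was 599601 to 741192 per library.

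Genes reaching 1 FPKM in 3 or more of the 6 libraries were fitted together as log2(FPKM + 1) by limma 3.58.1 (R 4.3.3, two-sided, moderated with a mean trend, no covariate), with Benjamini-Hochberg adjustment over 12006 genes. On this scale the change of low genes is understated. Folds are ratios of mean FPKM, except those per collagen I, which come from mean log2 ratios. The fit was tested on simulated data with independent noise per gene and the same SD in both groups. The Cbx2-/- libraries were less alike (r 0.946 to 0.987) than the wild-type libraries (r 0.986 to 0.989), which that simulation does not cover. Gene positions, exon counts and exon overlaps are from GENCODE vM21 (GRCm38), and figures were drawn with matplotlib 3.10.9. The genes and lists were chosen with earlier results of these data known. Named genes were the 10 genes, every other collagen synthesis gene past the threshold and the 4 most abundant that were not, collagen I chains, the 5 genes most like Serpinh1, Cbx2, and the 3 genes of lowest adjusted p in each of 3 other lists. Ctage5 and Mia2, names of 1 locus, were separate rows. Alternatives covered 18 fits: pseudocounts of 0.1 and 5 FPKM, other filters and scalings, limma settings, a replicate block, a muscle covariate and libraries left out.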

Additional observations from a re-analysis of the deposited data

How the results depend on the processing

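The count of 10 machinery genes called lower stayed at 7 under the other pseudocounts, filters, scalings and limma settings. It was 5 to 8 when 1 library was left out, 8 without Cbx2-/- replicates 1 and 2 together and 9 with the muscle covariate. The difference of Ppib was -0.26 to 0.042 when 1 library was left out, above 0 without Cbx2-/- replicate 3. Plod2, P4ha2, P4ha1, Serpinh1 and Pcolce were called lower in all 18 alternative fits, with an adjusted p of at most 0.0412. The other collagen synthesis genes called higher numbered 1, but 0 with haemoglobin genes left out and with the replicate block, 4 with the muscle covariate and 4 without Cbx2-/- replicates 1 and 2 together, and 0 to 2 when 1 library was left out. Over all genes, 1057 were higher and 998 lower, but 596 were higher with haemoglobin genes left out, 2147 higher and 2724 lower with the muscle covariate, 2047 and 2714 without Cbx2-/- replicates 1 and 2 together, and 367 to 2069 higher and 475 to 1719 lower when 1 library was left out. The causes were not tested.

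With the replicate block, 634 genes were higher and 7 of the 10 machinery genes were lower. The numbers are not shown to pair the mice, since deviations of same-numbered libraries from their group means correlated at 0.194, -0.179 and -0.103. Depth is unknown, so no counting interval can be given.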
